A study of Mus musculus with 4 samples.

Results

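H3K4me3, histone H3 trimethylated at lysine 4, marks the promoters of genes that are active or held ready for transcription. It was mapped by chromatin immunoprecipitation and sequencing (ChIP-seq) in bulk hippocampus, and what follows describes the kinesin motor genes in those maps. A member was any protein-coding gene of the GENCODE M21 mouse annotation whose symbol is Kif followed by a number, with or without a final letter. The rule gave 38 genes among 21853 protein-coding genes. Kinesins with other symbols, such as Kifc1 and Cenpe, fall outside it.

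The study used adult males of the B6CASTF1/J strain, a hybrid between a laboratory strain and a wild-derived strain, at 2 months of age. Pool C (biological replicate 2) and pool D (biological replicate 1) each combined 7 biosamples and gave 2 technical replicate libraries, which makes 4 libraries. There was no treatment, genotype or second tissue, and the label for the tissue names no particular layer. Both technical replicates of a pool went into 1 alignment, so the spread between single animals and between libraries cannot be seen. The authors deposited a pool C list of 34193 peaks, a pool D list of 24690 peaks, a replicated list of 27063 peaks and a list of 31301 peaks called on both pools together. Unless another list is named, values are from the replicated list. In the same list 12 of 12 fixed marker genes of hippocampal neurons had a promoter peak, as did 7 of 7 of astrocytes, 8 of 8 of oligodendrocytes, 7 of 7 of endothelium, 6 of 8 of interneurons, 4 of 8 of microglia and 3 of 8 of ependyma, against 64.8% of all protein-coding genes. The microglia count was 7 of 8 in the pool C list and 1 of 8 in the pool D list. All 8 markers of neural stem and dividing cells had one, and none of 8 genes that define liver, muscle, germ, blood or skin cells did.

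Kinesins are motor proteins that use ATP to walk along microtubules or to take them apart. In neurons they carry vesicle precursors, mitochondria and RNA along axons and dendrites. In dividing cells other members of the family build the spindle, move chromosomes and complete cytokinesis, and a further set serves cilia. The 38 genes were sorted by these roles into 11 axonal transport genes, 4 dendritic and vesicle transport genes, 12 mitotic genes, 6 genes of cilia and Hedgehog signalling and 5 others. Several members have more than 1 role. Kif3a and Kif3b, for example, also build cilia.

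A gene was called marked where a peak shared at least 1 bp with a window reaching 1 kb to each side of the start of a protein-coding transcript. Of the 38 kinesin genes 34 (89.5%) were marked, against 64.8% of all protein-coding genes. The same 34 genes were marked in the pool C list, where the share of all genes was 66.3%, and in the pool D list, where it was 63.7%. Marked were 11 of 11 axonal, 4 of 4 dendritic and vesicle, 10 of 12 mitotic, 6 of 6 ciliary and 3 of 5 other kinesins. The 4 genes without a promoter peak in any of these lists were Kif2b and Kif14 in the mitotic group and Kif12 and Kif28 among the others. With only the outermost 5′ end of each gene as its start, 10 of 11 axonal and 11 of 12 mitotic genes were marked, since Kif13b lost its call and Kif14 gained one.

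A promoter domain is the stretch formed by joining peaks no more than 1 kb apart, and breadth means its length in bp. Domains at axonal transport genes had a median of 3228 bp, against 1695 bp at mitotic genes, a 1.90-fold difference (log2 0.93). The fold was 2.15 in the pool C list (medians of 3674 and 1708 bp) and 1.76 in the pool D list (2926 and 1662 bp). Over all 34 marked kinesins the median was 2589 bp, above that of all genes here but below it under 4 alternatives, for example with no gap between peaks closed (1910.5 bp, against 2081 bp over all genes). All 14169 marked genes had a median of 2234 bp, with quartiles at 1632 and 3134 bp, so the axonal median lay above the upper quartile and the mitotic median close to the lower one. Above the median, where 50% of marked genes lie, were 9 of 11 axonal and 2 of 10 mitotic genes. Above the upper quartile (25% of marked genes) were 6 axonal genes and 1 mitotic gene, and below the lower quartile (25%) 0 axonal and 4 mitotic genes. The ranges overlapped, 1833 to 7867 bp in the axonal group and 1079 to 4970 bp in the mitotic group. No test was run on this difference, because each pool gave a single list and genes of a group are not replicates of one another. In bulk tissue, fewer cells with the mark and less of the mark per cell cannot be told apart.

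**Figure D1:**
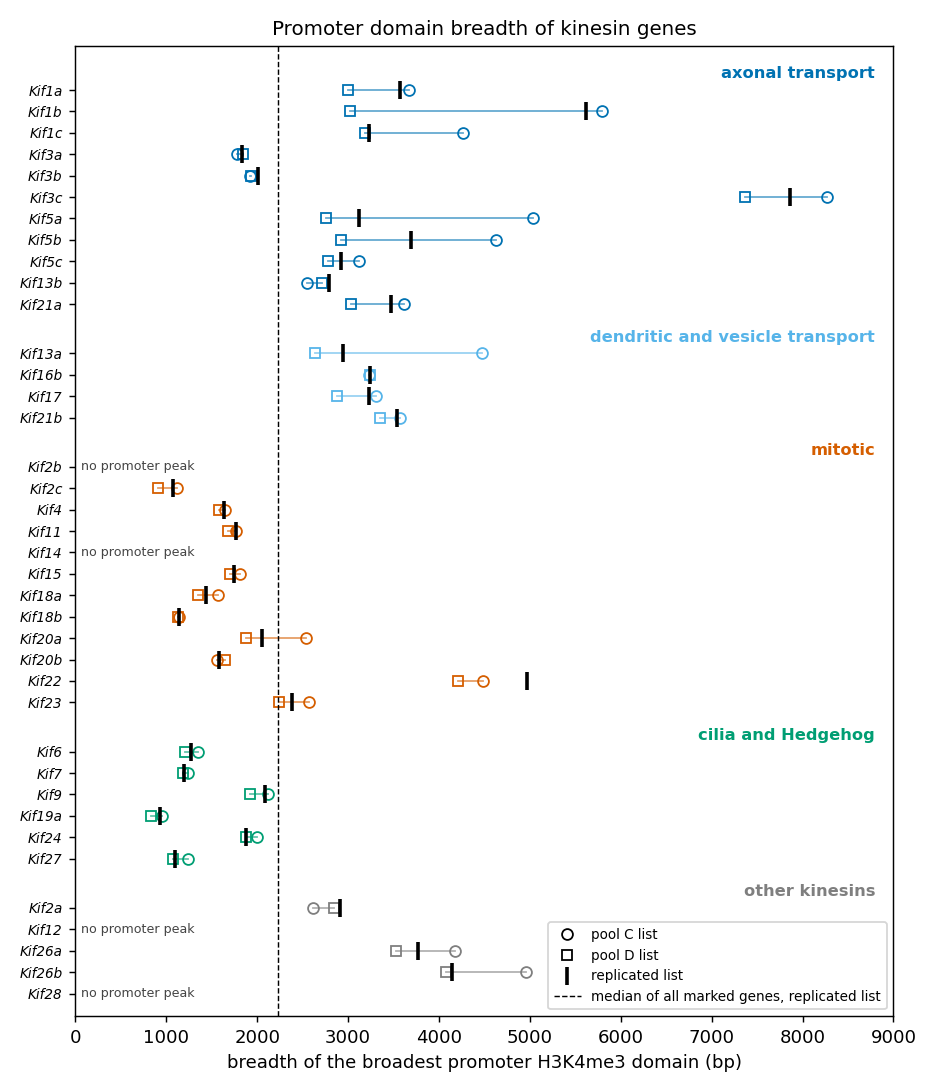
Breadth in bp of the broadest promoter H3K4me3 domain of each kinesin gene, grouped by role. Circles are the pool C list, squares the pool D list, vertical ticks the replicated list, lines join the values of both pools, and the dashed line is the median of all marked genes (2234 bp). Most axonal genes lie right of that line and most mitotic and ciliary genes left of it, and 4 genes had no promoter peak.

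Among the axonal genes, the conventional kinesin heavy chains Kif5a, Kif5b and Kif5c drive cargo such as mitochondria and vesicles. Kif5a had a domain of 3123 bp, with 5031 bp in the pool C list and 2760 bp in the pool D list. Kif5b, the most widely expressed of these genes, had 3694 bp, with 4633 bp in pool C and 2926 bp in pool D. Kif5c had 2925 bp, with 3125 bp in pool C and 2779 bp in pool D. All 3 exceeded the all-gene median, and the pools lay furthest apart at Kif5a (mean 3896 ± 1606 bp, SD over 2 pools) and closest at Kif5c (2952 ± 245 bp).

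Kif1a and Kif1b carry precursors of synaptic vesicles, and a product of Kif1b also carries mitochondria. Kif1a had 3568 bp, with 3674 bp in pool C and 3001 bp in pool D. Kif1b had 5620 bp, with 5795 bp in pool C and 3023 bp in pool D (4409 ± 1960 bp). Its domain joined a strong peak of 3950 bp over the start with a weak peak of 1104 bp inside the gene. In pool D the inner peak was also listed, 792 bp wide, but lay over 1 kb from the first and was not joined. Kif1c, a relative that moves secretory vesicles, had 3228 bp, with 4262 bp in pool C and 3191 bp in pool D. That domain also covered the start of the neighbour Inca1.

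The broadest kinesin domain belonged to Kif3c, a neuronal partner of Kif3a. It measured 7867 bp, with 8267 bp in pool C and 7367 bp in pool D (7817 ± 636 bp), and was broader than 98.8% of marked domains. The Kif3c domain joined peaks of 5479 and 2264 bp. Kif3c and Kif1b were the only kinesin genes with a domain over 5 kb in the replicated list, a breadth reached by 6.94% of marked genes. In the pool C list Kif5a also passed 5 kb, with 5031 bp. In the pool D list only Kif3c did, and Kif1b had 3023 bp. Kif3a and Kif3b, the pair that makes up the heterotrimeric kinesin together with Kifap3, had the narrowest axonal domains. Kif3a had 1833 bp, with 1783 bp in pool C and 1847 bp in pool D. Kif3b had 2009 bp, with 1921 bp in pool C and 1928 bp in pool D. These values differed between the pools by far less than either gene differed from Kif3c. Kif13b, which carries vesicles with a scaffold protein of the Dlg family, had 2790 bp, with 2545 bp in pool C and 2716 bp in pool D. Its domain lay at coding starts inside the annotated gene, and the gene's outermost 5′ end had no peak within 1 kb. Kif21a, which slows microtubule growth and is mutated in a human eye movement disorder, had 3473 bp, with 3612 bp in pool C and 3029 bp in pool D.

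Axonal domains extended into the gene. Measured from the coding start nearest to the summit of the strongest peak, they reached a median of 673 bp upstream and 2617 bp downstream. The mitotic medians were 910.5 bp upstream and 719.5 bp downstream, and those of all marked genes 743 and 1328 bp. Over 2 kb downstream reached 9 of 11 axonal and 1 of 10 mitotic domains, against 25.9% of marked genes. Only Kif3a (715 bp) and Kif3b (1335 bp) stopped short of that in the axonal group. Further downstream than upstream reached 10 of 11 axonal and 3 of 10 mitotic domains, against 79.2% of marked genes. The axonal exception, Kif3a, depends on the start used. In the pool D list its domain was measured from another coding start, and the count was 11 of 11. Of the mitotic domains 5 were shared with another coding gene, among them all 3 of these (Kif4, Kif18a and Kif22). Most of the axonal sequence under the mark was intronic. At Kif1b the domain held 265 bp of exons, 4398 bp of introns and 957 bp before the gene. At Kif3c it held 2400 bp of exons, 5003 bp of introns and 464 bp before the gene, and ended 7344 bp downstream of the coding start. At the mitotic genes Kif11 and Kif18b, by contrast, 1021 of 1763 bp and 628 of 1140 bp of a domain of their own lay outside the gene. At the own 5′ end of Kif22 it was 608 of 1234 bp. At Kif20a and Kif15 it was 1354 of 2055 bp and 1162 of 1750 bp. Those domains are shared with a neighbour, whose start lies nearest to the strongest summit. The axonal genes are between 31.4 kb (Kif1c) and 162 kb (Kif13b) long and the marked mitotic genes between 8.66 kb (Kif20a) and 101 kb (Kif4). The part of gene length in these extents was not tested.

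**Figure D2:**
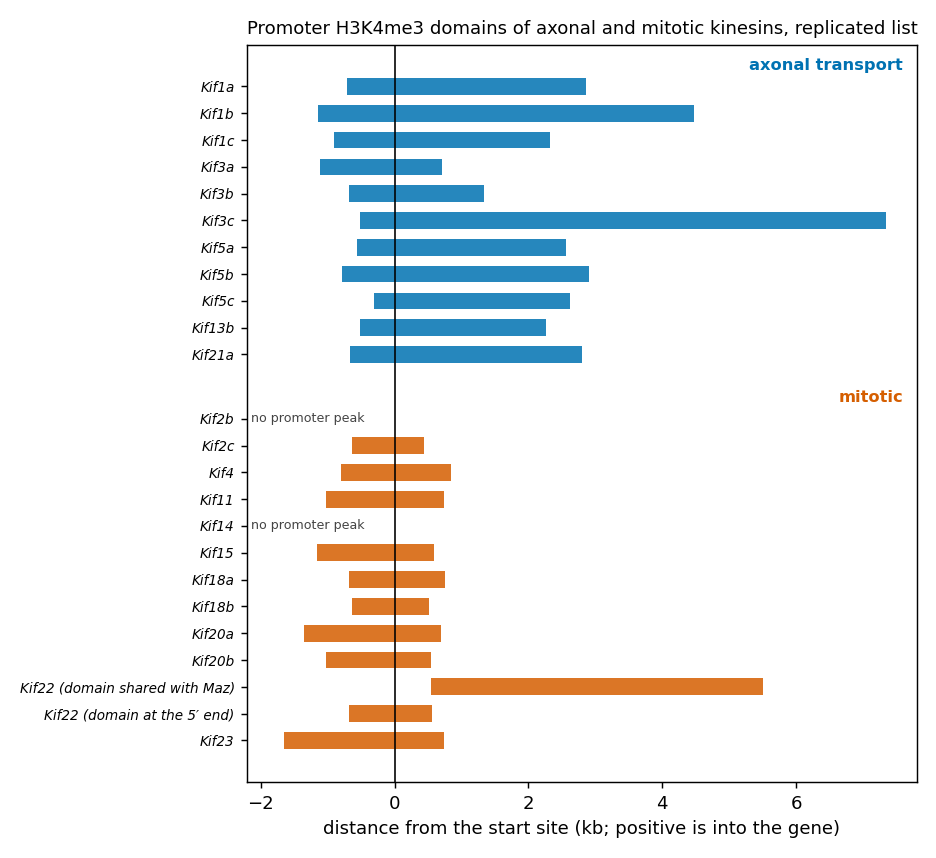
Position of each promoter domain of the axonal and mitotic kinesins in the replicated list, in kb from the coding start nearest to the summit of its strongest peak, with positive values inside the gene. Of 11 axonal domains 10 run further right of the start than left, up to 7344 bp at Kif3c, the exception being Kif3a (715 bp to the right). Kif3a has several coding starts, and its pool D domain, measured from another one, reaches 1072 bp right and 774 bp left. The mitotic ones end within 839 bp to the right, except the Kif22 domain shared with Maz.

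The promoter sequences below are the 250 bases before the RefSeq start on GRCm38.p6, the same build as mm10, read in the direction of the gene. Of the 38 members 31 had an entry, with 35 starts in all. Without an entry were Kif5a, Kif5b, Kif13b, Kif19a, Kif20a, Kif21b and Kif28. Capitals mark matches on either strand to the CCAAT box, TTTGAA (the core of the CHR element known from promoters of genes that peak late in the cell cycle), the GC box GGGCGG, the cyclic AMP response element TGACGTCA or the palindromic NRF1 consensus. A match is a run of letters, not a measured binding site. Kif3c is shown for the broadest domain, Kif1a as the classic synaptic vesicle motor, and Kif5c as the axonal promoter with TGACGTCA. All 3 stretches lay wholly under the replicated peak.
Kif3c promoter, chr12:3364882-3365131, plus strand: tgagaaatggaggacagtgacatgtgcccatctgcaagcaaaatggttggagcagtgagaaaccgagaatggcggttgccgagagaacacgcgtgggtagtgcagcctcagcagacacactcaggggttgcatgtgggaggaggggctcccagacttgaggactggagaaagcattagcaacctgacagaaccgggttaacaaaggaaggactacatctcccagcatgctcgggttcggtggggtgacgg
Kif1a promoter, chr1:93101875-93102124, minus strand: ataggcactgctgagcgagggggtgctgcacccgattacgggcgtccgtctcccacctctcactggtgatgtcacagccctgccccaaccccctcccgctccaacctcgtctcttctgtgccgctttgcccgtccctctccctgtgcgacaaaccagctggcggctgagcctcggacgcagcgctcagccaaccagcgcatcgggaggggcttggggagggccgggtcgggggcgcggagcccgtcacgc
Kif5c promoter, chr2:49619036-49619285, plus strand: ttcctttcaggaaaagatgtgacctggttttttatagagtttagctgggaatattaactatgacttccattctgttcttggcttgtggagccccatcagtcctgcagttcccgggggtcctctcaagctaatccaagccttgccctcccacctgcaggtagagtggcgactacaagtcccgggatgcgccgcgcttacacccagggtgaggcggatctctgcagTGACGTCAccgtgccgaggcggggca
The Kif3c stretch, under the broadest kinesin domain, held 9 CpG dinucleotides and none of the 5 motifs. Kif1a held 22 CpG and none of the motifs. Kif5c held 11 CpG and the palindrome TGACGTCA beginning 26 bases before the start. The median over 20143 RefSeq promoters was 10 CpG. TGACGTCA occurred in 2 members, Kif5c and Kif17, and in 1.99% of all promoters. The NRF1 consensus was in no kinesin promoter and in 1.11% of all.

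The mitotic group opens with the depolymerases Kif2b and Kif2c, which act at kinetochores. Kif2b had no peak within 889135 bp of its start. Kif2c had 1079 bp, with 1116 bp in pool C and 906 bp in pool D, the narrowest domain of the group. The domain sat at a coding start upstream of the RefSeq start, whose own 250 bases carried no peak and 2 CpG. Of the chromokinesins, which push chromosome arms, the X-linked Kif4 had 1640 bp, with 1648 bp in pool C and 1581 bp in pool D, in a domain shared with Pdzd11.

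Kif22, the other chromokinesin, had the broadest mitotic value, 4970 bp, with 4490 bp in pool C and 4206 bp in pool D. The whole of that domain lay at least 540 bp downstream of the Kif22 start that brought it in, and it belonged to the neighbouring gene Maz. At its own 5′ end Kif22 had a separate domain of 1234 bp, with 1169 bp in pool C and 995 bp in pool D. With that value in place of the shared one, the widest mitotic domain was the 2388 bp of Kif23, and Kif3a and Kif3b were the only axonal genes inside the mitotic range.

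Kif11 and Kif15 push spindle poles apart. Kif11 had 1763 bp, with 1768 bp in pool C and 1677 bp in pool D. Kif15 had 1750 bp, with 1809 bp in pool C and 1701 bp in pool D. The mean over the pools was 1722.5 ± 64.3 bp at Kif11 and 1755 ± 76.4 bp at Kif15 (SD, n = 2 pools). Kif18a and Kif18b shorten spindle microtubules. Kif18a had 1442 bp, with 1565 bp in pool C and 1352 bp in pool D. Kif18b had 1140 bp, with 1143 bp in pool C and 1133 bp in pool D.

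Kif20a, Kif20b and Kif23 work at the spindle midzone and in cytokinesis. Kif20a, which brings the chromosomal passenger complex to the midzone, had 2055 bp, with 2536 bp in pool C and 1878 bp in pool D. Its relative Kif20b had 1575 bp, with 1563 bp in pool C and 1647 bp in pool D. Kif23, the motor of centralspindlin, had 2388 bp, with 2565 bp in pool C and 2237 bp in pool D. Kif23 was the only mitotic gene above the all-gene median with a domain of its own.

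Kif14, needed for the end of cytokinesis, was close to the limit of the rule. A peak of 948 bp at chr1:136465827-136466774 lay 1161 bp from its nearest coding start, with 1112 bp in pool C and 1184 bp in pool D. The summit was 1811 bp upstream of that start but 219 bp from the start of a Kif14 transcript that the annotation lists as a retained intron. The peak's signal value was 15.1. Kif14 was therefore marked when the start of every transcript counted, and unmarked under the rule used here.

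Neighbours shared many mitotic promoters. The broadest domain also met another coding gene at 5 of 10 mitotic genes and 1 of 11 axonal genes, against 19.6% of marked genes. The shared mitotic domains were those of Kif4 with Pdzd11, Kif15 with 1110059G10Rik, Kif18a with Mettl15, Kif20a with Brd8 and Kif22 with Maz. The strongest summit was nearest to the other gene in 9.89% of marked genes, and this held for Kif15, Kif18a, Kif20a and Kif22 in the mitotic group and for Kif17 among the dendritic and vesicle genes. Counting only domains whose strongest summit was nearest to the gene itself left 11 of 11 axonal genes with a median of 3228 bp and 7 mitotic genes with a median of 1575 bp.

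The mitotic promoters shown are Kif11, with a domain of its own, Kif22 at its own 5′ end, and Kif14. The Kif14 stretch before the RefSeq start lies inside the annotated gene. That gene's outermost 5′ end, at chr1:136466343, is under the peak described above, and the stretch is not. Capitals mark the same motifs.
Kif11 promoter, chr19:37376132-37376381, plus strand: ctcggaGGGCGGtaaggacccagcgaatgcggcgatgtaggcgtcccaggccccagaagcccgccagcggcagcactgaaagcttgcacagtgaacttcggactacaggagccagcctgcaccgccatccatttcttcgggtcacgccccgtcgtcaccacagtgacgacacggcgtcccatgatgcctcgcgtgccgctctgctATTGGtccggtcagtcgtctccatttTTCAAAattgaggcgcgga
Kif22 promoter, chr7:127042421-127042670, minus strand: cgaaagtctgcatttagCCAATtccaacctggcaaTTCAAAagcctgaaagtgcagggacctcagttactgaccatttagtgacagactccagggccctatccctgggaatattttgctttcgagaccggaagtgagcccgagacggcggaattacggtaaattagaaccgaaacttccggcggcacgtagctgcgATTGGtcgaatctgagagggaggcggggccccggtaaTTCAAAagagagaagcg
Kif14 promoter, chr1:136467598-136467847, plus strand: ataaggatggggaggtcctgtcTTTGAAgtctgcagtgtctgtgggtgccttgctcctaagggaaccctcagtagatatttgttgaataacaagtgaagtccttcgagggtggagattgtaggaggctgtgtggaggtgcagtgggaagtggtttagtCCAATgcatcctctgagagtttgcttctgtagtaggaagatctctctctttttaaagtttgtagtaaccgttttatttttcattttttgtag
Kif11 held 24 CpG, Kif22 held 16 and Kif14 held 2, and no base of the Kif14 stretch was under the peak. On the reverse strand CCAAT began 45 bases and TTTGAA 19 bases before the start of Kif11, and 54 and 17 bases before that of Kif22. Kif15 also had TTTGAA on the reverse strand, 19 bases before its start. Further matches lay farther away. Kif15 had TTTGAA on the forward strand 234 bases before its start. Kif22 had CCAAT on the forward strand at 233 bases and TTTGAA on the reverse strand at 215 bases. In Kif14 both motifs were on the forward strand, 92 and 228 bases before the start. CCAAT occurred in 4 of 10 axonal and 7 of 11 mitotic promoters, and in 35.0% of all. Among those mitotic promoters, the stretches of Kif14 and Kif2b had no base under the replicated peak. TTTGAA occurred in 1 of 10 axonal and 5 of 11 mitotic promoters, and in 13.8% of all. The axonal match was at another RefSeq start of Kif1a, with no base under the replicated peak. The stretches of Kif14 and Kif2c also had none. GGGCGG occurred in 6 of 10 axonal and 6 of 11 mitotic promoters, and in 44.1% of all. Kif1b entered the axonal counts of CCAAT and GGGCGG with 2 starts. By gene they were 3 of 8 and 5 of 8. In Kif3a a CCAAT match overlapped a GGGCGG match. With so few promoters these counts are a description only.

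The 4 dendritic and vesicle kinesins had a median of 3236 bp, close to the axonal 3228 bp, with every gene above the all-gene median. Joined peaks and a shared domain entered these values. Counting only domains whose strongest summit was nearest to the gene itself, the median was 3090 bp and the minimum 1599 bp. With no gap closed, the widest peaks of Kif16b (1561 bp) and Kif13a (1559 bp) lay below the all-gene median of 2081 bp. Kif21b, a relative of Kif21a in dendrites, had the broadest at 3534 bp, with 3576 bp in pool C and 3353 bp in pool D. Kif16b, which moves early endosomes, had 3241 bp, made of peaks of 1561 and 1397 bp, with 3225 bp in pool C and 3240 bp in pool D. Kif17, which carries an NMDA receptor subunit, had 3231 bp in a domain shared with Sh2d5 and a second of 1599 bp at its RefSeq start. Kif13a, an endosomal motor, had 2939 bp, made of peaks of 1559 and 1206 bp on either side of its start, which itself lay in the gap between them.

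The 6 genes of cilia and Hedgehog signalling were narrow. Their median was 1232.5 bp, none exceeded the all-gene median and 4 were below the lower quartile. Kif19a, which trims ciliary microtubules, had 934 bp, the narrowest kinesin domain. Kif27 had 1095 bp, Kif7, a regulator of Hedgehog signalling, 1196 bp and Kif6 1269 bp. Kif24, which holds back cilium assembly, had 1880 bp in a domain shared with Nudt2. Kif9, a motor of motile cilia, had 2081 bp, shared with Klhl18.

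Of the 5 other kinesins, Kif26b had 4139 bp, with 4961 bp in pool C and 4079 bp in pool D, and a second domain of 3070 bp at an inner start. Kif17, Kif22 and Kif26b were the kinesins with several separate domains, found at 7.04% of marked genes. Kif26a, which lacks motor activity, had 3775 bp, with 4182 bp in pool C and 3527 bp in pool D. Kif2a, a depolymerase that limits axon branching, had 2914 bp, with 2618 bp in pool C and 2844 bp in pool D. Kif12 had no peak within 41891 bp and Kif28 none within 10171 bp of a coding start.

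Axonal peaks were also higher than mitotic ones in the median. The authors' signal value, an enrichment on the scale of their caller, had a median of 28.3 at axonal and 21.8 at mitotic genes, against 22.3 over all marked genes. Above the upper quartile of 27.2 (25% of marked genes) were 7 of 11 axonal, 0 of 10 mitotic and 0 of 6 ciliary genes. Kif3b had the highest kinesin signal, 37.9, which exceeded 99.96% of marked genes, and Kif3a had 30.9. The heterotrimeric pair thus combined domains below the all-gene median breadth with high peaks. Kif3c showed the opposite, with the broadest domain and the lowest axonal signal, 16.9. In the pool D list the Kif3a signal, 18.5, exceeded only 52.0% of marked genes, while that of Kif3b, 30.8, exceeded 99.8%. Of the mitotic genes, Kif18a (26.9) and Kif20b (26.7) had the highest signal and Kif18b (17.3) the lowest. The Kif18a domain is shared with Mettl15, whose start lies nearest to its summit. The values of Kif15, Kif20a and Kif22 likewise come from domains whose strongest summit is nearest to a neighbour. At its own 5′ end Kif22 had a signal of 17.5. The mitotic ranking did not hold in the pool D list. There Kif18a had 15.5, Kif20b (20.96) and Kif20a (20.90) were highest, and Kif4 (13.56) lay just below Kif18b (13.61). The domain at the own 5′ end of Kif22 had 10.1 in that list, lower than both.

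**Figure D3:**
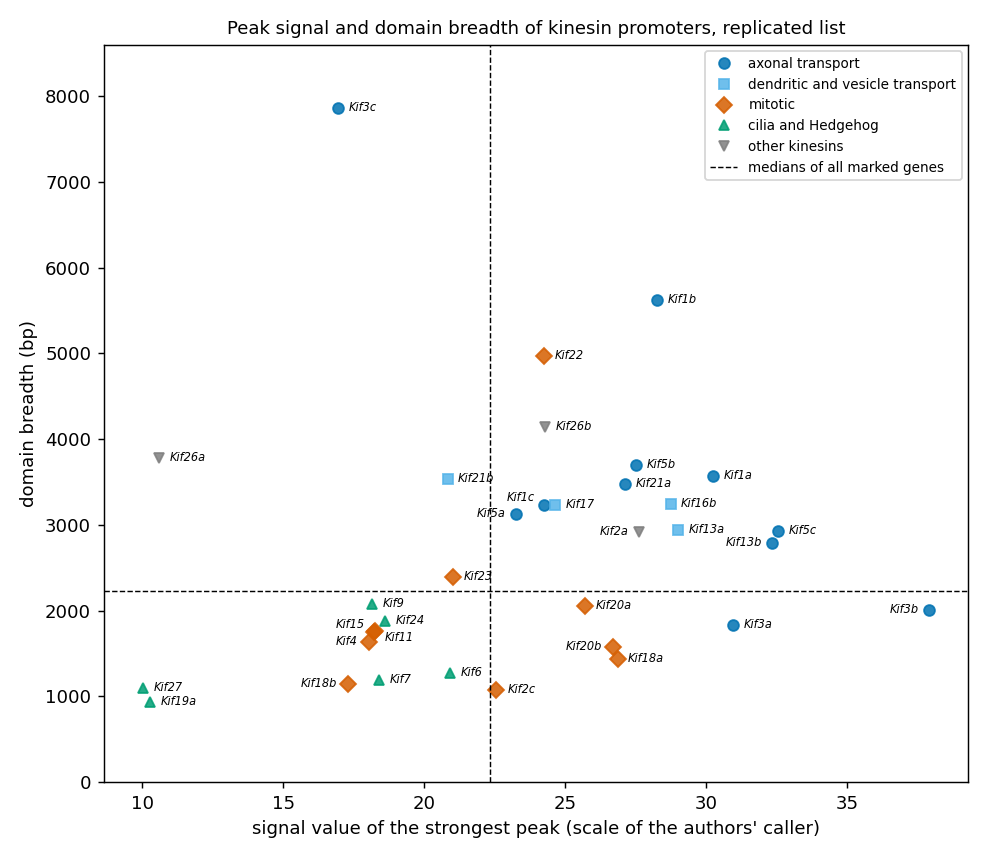
Signal value of the strongest peak, on the scale of the authors' caller, against domain breadth in bp for the 34 marked kinesins, with dashed lines at the medians of all marked genes (22.3 and 2234 bp). Kif3c stands at the upper left, broad and low, and Kif3b at the lower right, below the median breadth and high (37.9).

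Breadth differed between the pools. Of 34 marked kinesins 28 were wider in pool C, with a median of 1.12-fold (log2 0.17), against 96.8% of all genes marked in both pools and a median of 1.17-fold (log2 0.23). The median log2 ratio was 0.25 over the axonal genes (8 of 11 wider in pool C) and 0.09 over the mitotic genes (9 of 10). Over 1.5-fold wider in pool C were Kif1b, Kif5a, Kif5b and Kif13a, against 12.7% of all genes, and no mitotic gene. At Kif5a, Kif5b and Kif13a the pool C domain took in a separate weak peak of 530, 637 and 953 bp, with signal values of 2.96, 4.43 and 3.67, that lay within 1 kb of the main peak. The pool C list held 34193 peaks and the pool D list 24690. The files give no depth for either pool, and the part of depth in the pool difference was not tested.

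CpG content was counted in the 500 bp on either side of each gene's CpG-richest coding start. The axonal median was 64 CpG, against 67 over all marked genes and 10 over unmarked genes. Over all 12 mitotic genes, including the unmarked Kif2b and Kif14, the median was 57, so it is not a median of marked genes only. All axonal genes had at least 55. The 4 unmarked kinesins were the poorest, with 27 at Kif2b, 23 at Kif28, 20 at Kif14 and 14 at Kif12, while the next was Kif2c with 41. Of the 18 marked kinesins with at least 67 CpG 12 were broader than 2234 bp, with a median of 3083.5 bp, and of the 16 with fewer CpG 6 were, with a median of 2032 bp. Single genes departed from this. Kif3c had 56 CpG and the broadest domain, and Kif27 had 93 CpG and 1095 bp. Kif2a had the most CpG, 155, with 2914 bp.

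**Figure D4:**
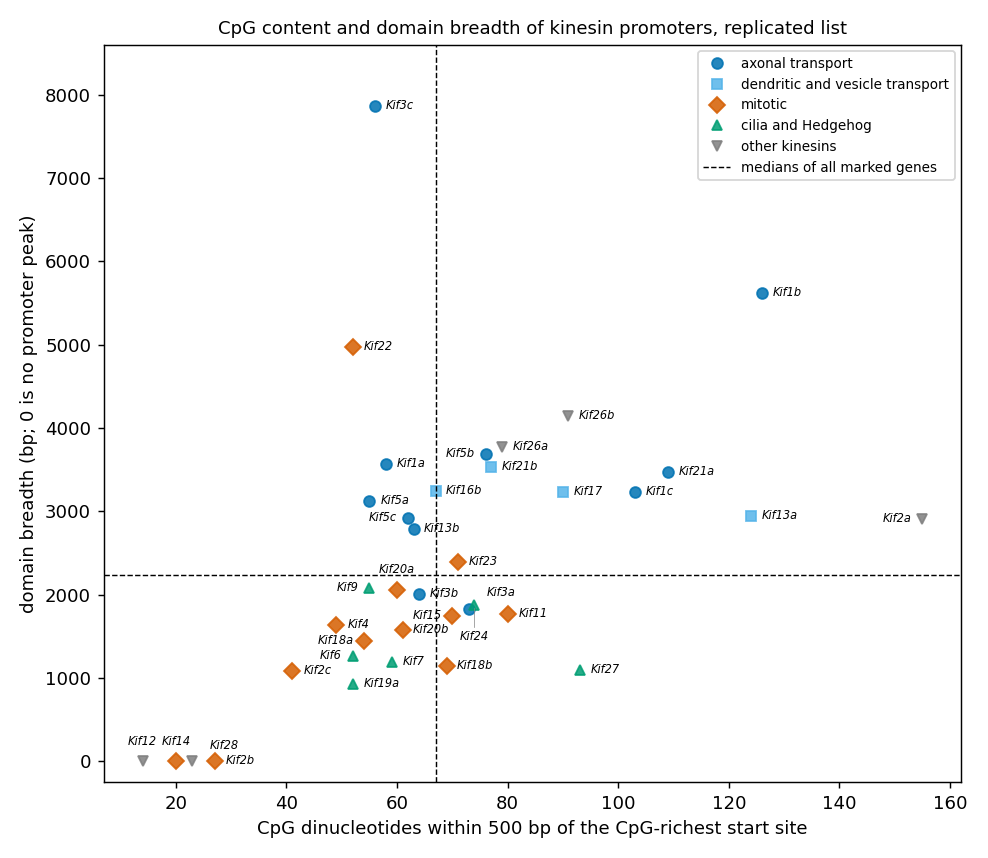
Number of CpG dinucleotides within 500 bp of the CpG-richest coding start against domain breadth in bp for all 38 kinesins, with breadth 0 for genes without a promoter peak and dashed lines at the medians of all marked genes (67 CpG and 2234 bp). The 4 unmarked genes sit at 27 CpG or fewer, and above that the points of all roles overlap along the horizontal axis.

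Genes that work with the kinesins were taken from 2 further lists. The spindle list also holds Kifc1 and Cenpe, which are themselves kinesins outside the symbol rule. Of 30 names in a list of transport partners (light chains, adaptors, dynein and dynactin subunits, microtubule proteins), 29 were in the annotation and all 29 were marked, with a median of 3088 bp (3365 bp in pool C, 2362 bp in pool D). Among all protein-coding genes 64.8% were marked. Of the 29 partners, 20 exceeded the all-gene median (50% of marked genes), 13 the upper quartile (25%), and 2 lay below the lower quartile (25%). The broadest were Stmn2 (4985 bp), which regulates microtubules in growing axons, and Mapt (4768 bp), which encodes tau. Of 25 spindle and midzone genes, 25 were marked, with a median of 1371 bp (1440 bp in pool C, 1318 bp in pool D), 0 above the all-gene median and 22 below the lower quartile. The broadest were Aurka (2078 bp), a spindle pole kinase, and Incenp (1851 bp), a scaffold of the chromosomal passenger complex. Downstream of the start the partner medians were 2135 bp for transport and 551 bp for the spindle. The kinesin light chains Klc1, Klc2, Klc3 and Klc4 had 3088, 2292, 849 and 2058 bp, so the partners of the Kif5 heavy chains lay on both sides of the all-gene median. CCAAT was in 9 of 34 promoters of the transport list and 19 of 24 of the spindle list, TTTGAA in 5 and 7, and GGGCGG in 20 and 17. The shares of all promoters with each motif are given above (35.0%, 13.8% and 44.1%).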

How the data were processed

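H3K4me3 ChIP-seq peaks of hippocampus from 2 pools were used as the authors deposited them, on build mm10. Per the labels, 3 lists hold pseudoreplicated peaks (pool C, pool D, both pools together) and 1 holds replicated peaks. Aligner, peak caller and settings: not given in the sources used here. The authors deposited a signal value, a −log10 p, a −log10 q, a display score and a summit position per peak; signal was compared only within a list. Depth is unknown, so no counting interval is given.

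Peaks were set against 21853 protein-coding genes of GENCODE M21 (54361 coding starts) with Python 3.11.15, pandas 2.3.3 and pysam 0.24.0. A gene took its broadest domain. The scripts were tested on simulated peaks. Every member is named, of the partner lists those without a peak and the 2 broadest; the light chains were chosen after their values were seen. Members and lists were chosen with earlier results of these data known. Counts stand beside those of all genes, without tests. Promoter sequences are from RefSeq, GRCm38.p6. Alternatives changed the list, window, starts, gaps, threshold and neighbour rule.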

Additional observations from a re-analysis of the deposited data

How the results depend on the processing

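The number of marked kinesins stayed between 31 and 35 under every alternative tried, and the log2 ratio of axonal to mitotic breadth between 0.82 and 1.11. The share of marked genes was 16.7 percentage points higher in the axonal than in the mitotic group. It was 8.33 points with a window of 2.5 kb or with the starts of every transcript, which bring in Kif14, and 41.7 points when only domains with the strongest summit nearest to the gene counted. It was −0.758 points when only the gene's 5′ end was a start, since Kif13b was then unmarked and Kif14 marked (10 of 11 axonal, 11 of 12 mitotic). Over all kinesins the median breadth was 2589 bp. It was 2234.5 bp with a window of 500 bp (2243 bp over all genes), 2388 bp with a window of 2.5 kb, every transcript's start or the nearest-gene rule, 2068 bp with the 5′ end alone (2202 bp over all genes), 1910.5 bp with no gap closed (2081 bp over all genes) and 2852 bp with gaps of 3 kb closed. With the peak summit inside the window, an alternative chosen after seeing the data, it was 2081 bp (2218 bp over all genes). It was 2555 bp without replicate 1 (the pool C list) and 2434 bp without replicate 2 (the pool D list). That the family as a whole is broader than the median gene therefore depends on the setting. The cause was not tested. The median log2 ratio of pool C to pool D was 0.15 with gaps of 3 kb closed, against 0.17. Of 185 values of single genes, apart from those of the single-pool lists, 174 moved by less than the SD over the pools. With gaps of 3 kb closed Kif5a reached 7327 bp, Kif18a 3966 bp and Kif22 14588 bp, and with no gap closed Kif23 had 1263 bp and Kif22 1461 bp. The broadest kinesin domains also shrank with no gap closed, to 5479 bp at Kif3c and 3950 bp at Kif1b. No paired analysis was possible because each pool gave 1 list without values per technical replicate, and no groups of samples were compared. With 2 pools and unknown depth, differences between pools cannot be tested.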

Other observations

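Away from their promoters, several kinesin genes carried further peaks inside the gene. Apart from the Kif14 peak described above, the strongest in the replicated list was in an intron of Kif21b, at chr1:136139625-136140812 (mm10). It was 1188 bp wide, its summit lay 8900 bp downstream of the start, its signal value was 12.6, and it was present in the pool C list (1377 bp) and in the pool D list (1014 bp). Kif28, which had no promoter peak, carried an intronic peak of 423 bp at chr1:179734607-179735029 with a signal value of 11.8. In Kif7 a peak of 1246 bp at chr7:79709852-79711097 with a signal value of 11.3 lay over the start of the antisense gene 9330171B17Rik. Weaker peaks, with signal values between 2.36 and 5.78, lay inside Kif1a, Kif1b, Kif5c, Kif21a, Kif20b, Kif6, Kif19a, Kif27 and Kif26b. The pool D list held no such inner peak in Kif1a, Kif5c, Kif20b, Kif6 or Kif27. These peaks were singled out after their values were seen.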
